A study of Mus musculus with 2 samples.

Results

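The circadian clock genes of the mouse were examined in whole embryos with both copies of chromosome 18 from one parent. The set comprised 10 genes: Clock, Arntl, Per1, Per2, Per3, Cry1, Cry2, Nr1d2, Dbp and Nfil3. It was read by every probe set annotated with exactly 1 gene symbol, where that symbol was one of these. This gave 23 probe sets out of the 45101 on the array, of which 34945 carried 1 gene symbol (18193 genes). The set was chosen by name, and Nfil3 was selected on its measured signals on these arrays, which had placed it among the genes furthest towards patUPD18. Its difference is therefore a description and is not evidence about the set.

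Embryos with a maternally derived disomy of the whole of chromosome 18 (matUPD18) were set against embryos with the paternally derived disomy (patUPD18), both at 8.5 days post coitum. Each kind was measured on 1 array from amplified total RNA of whole embryos, with no embryos of biparental origin among the arrays analysed here. The sources used here do not give how many embryos were pooled or the time of day of collection. None of the clock genes lies on chromosome 18 (0 of 10), so all were carried as a maternal and a paternal copy in both kinds of embryo. With 1 array per genotype no test could be run, so values stand without errors or p-values. The number of arrays limits the precision of every value.

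The mammalian clock is a set of interlocked feedback loops in gene transcription. CLOCK and BMAL1, the product of Arntl, bind E-boxes and switch on the Period and Cryptochrome genes, whose proteins then repress CLOCK and BMAL1. The nuclear receptors REV-ERB alpha and beta (Nr1d1 and Nr1d2) repress Arntl through ROR elements, and Nfil3 is another of their known targets. At D-boxes, NFIL3 acts as a repressor and opposes the activators DBP, TEF and HLF, which share its type of DNA-binding domain. In adult tissues these transcripts cycle over the day. Pluripotent cells and early embryos are known to lack a running clock, which appears as cells differentiate.

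Letter matches to the promoter elements of these loops are shown first. The results are then ordered by the known roles of the proteins. RefSeq promoter records (GRCm38.p6, 250 bases before to 50 bases after each annotated start) were used for 9 of the 10 genes (all but Per2), as 13 records. They were searched on both strands for the E-box CACGTG, its variant CACGTT, the D-box TTATGTAA and a short core of the ROR element, AGTAGGTNA. No match overlapped another. Capitals mark the matches, and the label ROR element stands for a match of this short core only.
Per3, D-boxes, chr4:151044801-151044885, minus strand: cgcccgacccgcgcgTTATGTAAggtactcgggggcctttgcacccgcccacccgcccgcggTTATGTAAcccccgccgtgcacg
Arntl, ROR elements, chr7:113207488-113207560, plus strand: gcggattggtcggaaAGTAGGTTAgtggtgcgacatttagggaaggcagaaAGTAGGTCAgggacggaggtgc
Cry1, E-box and its variant, chr10:85185094-85185148, minus strand: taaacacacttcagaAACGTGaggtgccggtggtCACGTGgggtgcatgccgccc
Per1, E-box, chr11:69098768-69098803, plus strand: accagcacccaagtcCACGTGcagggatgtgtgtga
Cry2, E-box variant, chr2:92434215-92434250, minus strand: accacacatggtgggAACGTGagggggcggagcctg
Nfil3, ROR element in a whole record, chr13:52980990-52981289, minus strand: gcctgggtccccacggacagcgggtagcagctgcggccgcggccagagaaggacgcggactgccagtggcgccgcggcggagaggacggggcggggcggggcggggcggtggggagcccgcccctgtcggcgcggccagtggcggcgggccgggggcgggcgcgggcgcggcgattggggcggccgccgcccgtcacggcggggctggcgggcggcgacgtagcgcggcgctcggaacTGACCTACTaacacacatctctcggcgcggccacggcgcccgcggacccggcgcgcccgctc

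Per3 held the D-box at 205 and 158 bases before its start, whereas 0.938% of all 32851 promoter records held it at all. Arntl held the ROR element core at 8 bases before its downstream start and again at base 29 after it. This core was found in 0.591% of all records. The Nfil3 record held it on the opposite strand, 12 bases before the start. The core had been shortened after the matches of a longer form, which the Nfil3 record lacked, were seen. No weight is therefore placed on the matches of this core in Arntl or Nfil3, or on its share. The E-box was found in Cry1 and in the more upstream record of Per1, but not in the other Per1 record (7.15% of all records). The variant was found in Cry1 and Cry2 (4.68% of all records). These shares are counted by record, and some genes have several records. The Nfil3 record is given whole because Nfil3 differed most between the arrays. The records of Clock, Nr1d2 and Dbp held none of these letters. Positions are those of the first base of a match as read along the gene. These matches describe the sequence only. No binding was measured.

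The deposited values are MAS5 signals, in arbitrary units, already scaled so that both arrays had nearly the same 2% trimmed mean. A probe set was called measurable where at least 1 of its 2 values reached the 60th percentile of its own array (190.1 in matUPD18 and 184.9 in patUPD18). For ratios, values under the 40th percentile (84.2 in matUPD18 and 82.5 in patUPD18) were raised to it. Of the 23 clock probe sets, 13 were measurable, and they covered 9 of the 10 genes. Per2 alone had none. Of the 10 probe sets that were not measurable, 5 lay under the floor on both arrays. The brightest probe set, by mean over both arrays, stood for each gene. For 8 of the 9 genes that probe set passed on both arrays, and for Clock it passed through the patUPD18 value alone.

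Among the clock genes, Nfil3 alone lay past 2-fold. Of the 9 measurable genes, 0 exceeded 2-fold towards matUPD18 and 1 towards patUPD18. Over all 10484 measurable genes the shares were 2.70% towards matUPD18 and 1.78% towards patUPD18. The 8 genes other than Nfil3 had log2 ratios (matUPD18 over patUPD18) between -0.61 and 0.67. Their median was 0.11. With Nfil3 the median of the 9 was 0.01, against -0.04 for all measurable genes. Of the 9, 5 read higher in matUPD18 and 4 higher in patUPD18, where 46.1% of all measurable genes read higher in matUPD18. The clock genes other than Nfil3 thus lay on both sides of equality, as did the genome at large.

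**Figure D1:**
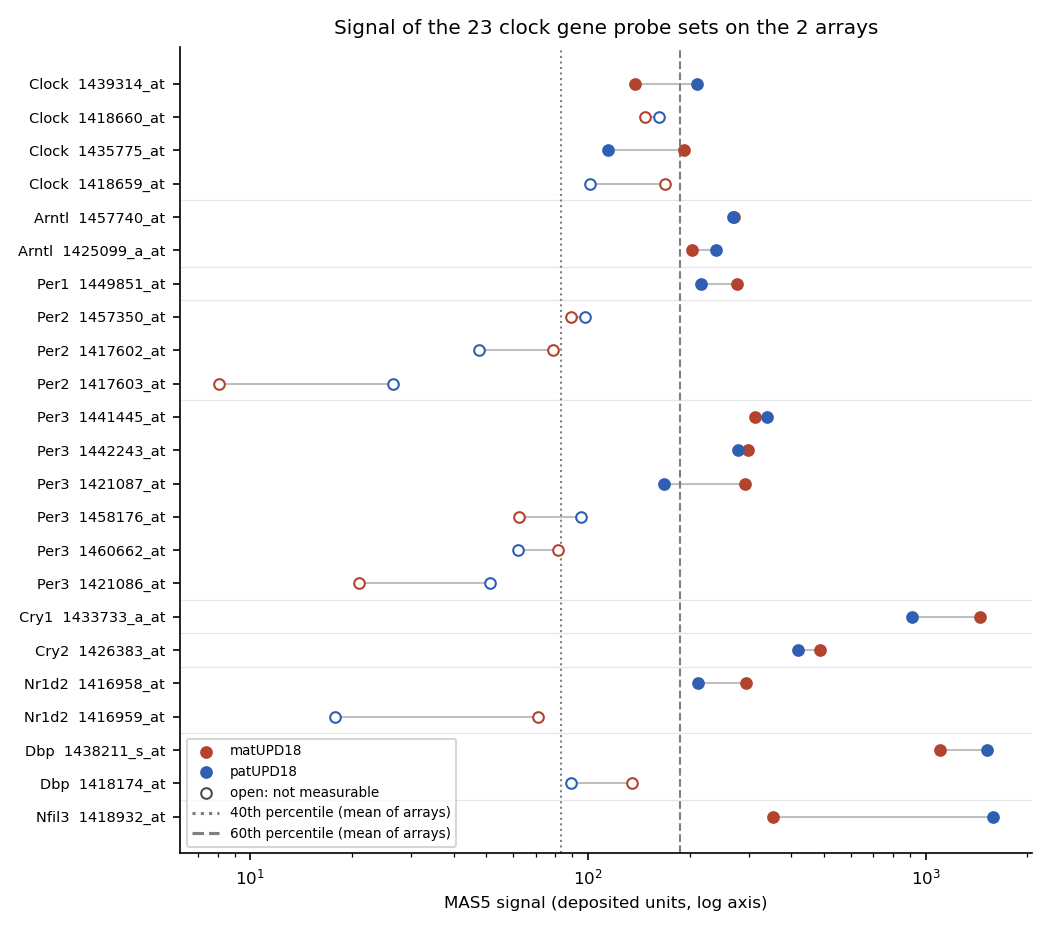
MAS5 signal (log axis) of each of the 23 clock gene probe sets on the matUPD18 array (red) and the patUPD18 array (blue), 1 point per array, joined by a line. Filled points are measurable probe sets and open points are not; the vertical lines mark the 40th and 60th percentiles, each averaged over the 2 arrays. The line of Nfil3 spans 353.5 in matUPD18 to 1587 in patUPD18, and probe sets of Clock and Per3 run in opposite directions.

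A yardstick for disagreement between probe sets of the same gene came from the arrays themselves. Over 4003 genes with several measurable probe sets (10206 probe sets), log2 ratios differed within a gene with a pooled standard deviation of 0.44 between its probe sets. In 49.6% of these genes the probe sets included both directions. This spread is between probe sets on the same pair of arrays and leaves out any difference between embryos. It was pooled over measurable probe sets of all signal levels. Besides Nfil3, chosen for its ratio, log2 ratios larger than 0.44 were found in 4 of the other 8 clock genes, namely Clock, Cry1, Nr1d2 and Dbp, and in 30.8% of all measurable genes. Clock counts here through a probe set that passed on the patUPD18 array alone, and nothing is read from this count.

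In the activating limb, Arntl read the same on both arrays. Arntl encodes BMAL1, the partner that CLOCK needs to bind DNA. Its brighter probe set (1457740_at) gave a signal of 270.4 in matUPD18 and 269.1 in patUPD18, a log2 ratio of 0.01. Its other probe set (1425099_a_at) gave 203.7 in matUPD18 and 239.7 in patUPD18, a log2 ratio of -0.23. The gap between these probe sets, 0.24, was smaller than the median gap of 0.48 over genes with several measurable probe sets.

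Clock itself had no single direction. Its brightest probe set (1439314_at) gave 138.0 in matUPD18 and 210.5 in patUPD18, a log2 ratio of -0.61. Its other measurable probe set (1435775_at) gave 193.0 in matUPD18 and 114.4 in patUPD18, a log2 ratio of 0.75. The directions were opposite, 1.36 apart on the log2 scale, and the median of the pair was 0.07. Of the probe sets that were not measurable, 1418659_at gave 168.9 in matUPD18 and 101.4 in patUPD18, and 1418660_at gave 147.8 in matUPD18 and 162.8 in patUPD18. Clock fell in the dimmest twentieth of measurable genes, where 57.0% of the 525 genes had a ratio at least as large in size as -0.61.

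Of the PER and CRY repressors, which close the main loop, 4 of 5 were measurable and all 4 lay within 2-fold, as did 95.5% of all measurable genes. Cry1 encodes the stronger of the CRY repressors. Its only probe set (1433733_a_at) gave 1451 in matUPD18 and 911.7 in patUPD18, a log2 ratio of 0.67 (1.59-fold higher in matUPD18). This was the largest ratio towards matUPD18 among the clock genes read by their brightest probe sets, and 11.3% of the 524 genes of like signal had a ratio at least as large in size. Cry2, its paralog, gave 486.3 in matUPD18 and 420.5 in patUPD18, a log2 ratio of 0.21, which is under the spread between probe sets. Per1, a Period gene that also responds quickly to light, stress hormones and cyclic AMP, gave 276.4 in matUPD18 and 217.0 in patUPD18, a log2 ratio of 0.35 that is likewise under that spread. Cry1, Cry2 and Per1 each had a single probe set, so no second reading of them was possible.

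Per3, the Period gene that is least needed for rhythm in mice, had 6 probe sets, of which 3 were measurable. The brightest (1441445_at) gave 313.6 in matUPD18 and 338.4 in patUPD18, a log2 ratio of -0.11. A second (1442243_at) gave 298.4 in matUPD18 and 278.5 in patUPD18, a log2 ratio of 0.10. These both sit near equality. The last (1421087_at) gave 291.7 in matUPD18 and 167.5 in patUPD18, a log2 ratio of 0.80. It was measurable through the matUPD18 value alone. The 3 readings spanned 0.91 on the log2 scale, so that the gene had no single direction. The 3 dimmer probe sets read between 21.0 and 81.8 in matUPD18 and between 51.2 and 95.3 in patUPD18.

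Per2, whose protein is phosphorylated in a way known to set the speed of the clock, was not measurable. Its 3 probe sets gave 89.4, 79.1 and 8.05 in matUPD18 and 97.9, 47.6 and 26.5 in patUPD18. The first lay just above the floor on both arrays and had a log2 ratio of -0.13. The other 2 lay under the floor on both, and no ratio is given for them. No difference in Per2 was detectable at these signals.

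Nr1d2 encodes REV-ERB beta, a repressor of Arntl and Nfil3. Its measurable probe set (1416958_at) gave 294.9 in matUPD18 and 211.3 in patUPD18, a log2 ratio of 0.48 (1.40-fold higher in matUPD18). Of the 524 genes of like signal, 26.7% had a ratio at least as large in size. Its other probe set (1416959_at) gave 70.9 in matUPD18 and 17.8 in patUPD18, under the floor on both arrays. Of its known targets, Arntl had a log2 ratio of 0.01 and Nfil3 one of -2.17. Whether Nr1d2 had a part in either ratio was not tested.

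The D-box arm held the largest clock difference. Nfil3 encodes the repressor also called E4BP4, which is a clock output and is known besides for its part in immune cell development. Its only probe set (1418932_at) gave 353.5 in matUPD18 and 1587 in patUPD18. The log2 ratio was -2.17, 4.49-fold higher in patUPD18. Both values lay well above the measurable limit of their arrays. It was the largest ratio in size among the 524 genes of like signal, whose central 95% ran from -0.89 to 0.95. It ranked 5th among all measurable genes higher in patUPD18. Without the floor it ranked 22nd, since dim genes then had larger ratios. A 4-fold excess in patUPD18 was reached by 7 measurable genes (0.0668%), but Nfil3 had been chosen for this difference. These ranks and shares therefore support nothing. In RNA from whole embryos, fewer cells that express a gene and less RNA per cell cannot be told apart.

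Dbp encodes the activator that competes with NFIL3 for D-boxes. Its brightest probe set (1438211_s_at) gave 1100 in matUPD18 and 1522 in patUPD18, a log2 ratio of -0.47 (1.38-fold higher in patUPD18). Of the 524 genes of like signal, 26.5% had a ratio at least as large in size. The suffix of that probe set marks it as one that may match several transcripts. Its other probe set (1418174_at), not measurable, had the opposite direction, with 135.1 in matUPD18 and 89.3 in patUPD18. The direction of Dbp therefore depended on the probe set.

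The other activators at the D-box were read from the list of further clock factors. Tef gave 723.5 in matUPD18 and 745.5 in patUPD18, a log2 ratio of -0.04. Hlf gave 311.4 in matUPD18 and 407.0 in patUPD18, a log2 ratio of -0.39. Neither exceeded the spread between probe sets. Probe sets that were not measurable ran the other way. One of Tef (1438033_at) gave 165.2 in matUPD18 and 80.4 in patUPD18, and one of Hlf (1434736_at) gave 103.0 in matUPD18 and 16.4 in patUPD18, both with a patUPD18 value under the floor. Per3, whose promoter record holds the D-box at a pair of positions, had a log2 ratio of -0.11 at its brightest probe set. Its other measurable probe sets read 0.10 and 0.80. Whether NFIL3 had a part in the Per3 signal was not tested.

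**Figure D2:**
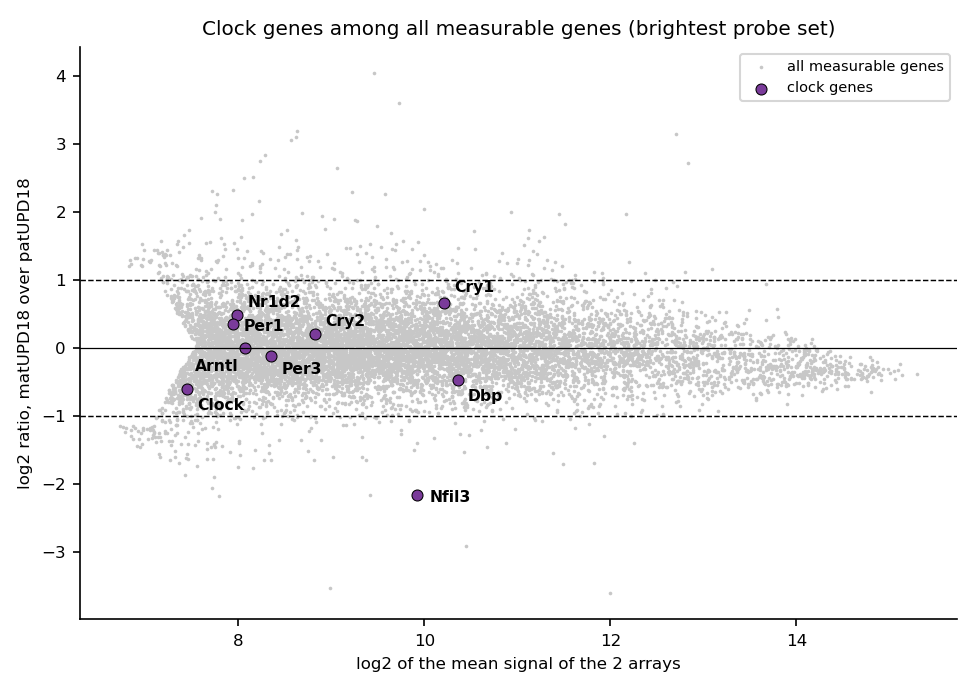
Log2 ratio of matUPD18 over patUPD18 (vertical axis) against the log2 of the mean signal of the 2 arrays (horizontal axis) for the 10484 measurable genes (grey) and the 9 measurable clock genes (purple), each read by its brightest probe set. Dashed lines mark 2-fold. Nfil3 lies at -2.17, with few grey points lower, Impact at -2.91 among them, and the other clock genes lie between -0.61 and 0.67.

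A wider list of 37 clock factors and modifiers, covering paralogs, kinases, ubiquitin ligases and chromatin partners of the clock, had 33 genes on the array under a symbol of their own. Of these, 23 were measurable. Their median log2 ratio was 0.06, with 13 higher in matUPD18 and 10 higher in patUPD18. Past 2-fold there were 0 towards matUPD18 and 1 towards patUPD18, again against 2.70% and 1.78% of all measurable genes. That gene was Usp2, a deubiquitinase of clock proteins that is itself a strongly rhythmic transcript in adult tissues. Its brightest probe set gave 44.9 in matUPD18, under the floor, and 263.8 in patUPD18, so the signal was at least 3.13-fold higher in patUPD18. With the floor at the 60th percentile the count towards patUPD18 was 0, where the share of all measurable genes was 0.744%. The other probe set of Usp2, not measurable, read 107.1 in matUPD18 and 100.3 in patUPD18 and did not share the difference.

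Next to Usp2 in the patUPD18 direction came Ddb1, an adaptor of cullin ubiquitin ligases, with 1857 in matUPD18 and 2884 in patUPD18 (log2 ratio -0.63). Crem, a cyclic AMP response factor, followed at -0.42. Crem lies on chromosome 18, so both of its copies came from one parent in either kind of embryo. In the matUPD18 direction, Csnk1e, the casein kinase that phosphorylates PER proteins, gave 792.6 in matUPD18 and 514.9 in patUPD18, a log2 ratio of 0.62. Its second measurable probe set gave 739.8 in matUPD18 and 489.4 in patUPD18, a log2 ratio of 0.60. Csnk1e is thus a factor whose measurable probe sets shared both direction and size. Sirt1, a deacetylase that acts on BMAL1 and PER2, had a log2 ratio of 0.50. Cipc, an inhibitor of CLOCK, had log2 ratios of 0.42 and -0.20 at its 2 measurable probe sets, which were opposite in direction. The probe set that read 0.42 may match several transcripts.

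Several paralogs of the clock genes did not reach the measurable limit on either array. Npas2, which can stand in for Clock, gave at most 15.5 in matUPD18 and 13.4 in patUPD18. Nr1d1, the paralog of Nr1d2, gave 13.1 in matUPD18 and 10.4 in patUPD18. Both lay far under the floor. Arntl2 gave 43.5 in matUPD18 and 117.4 in patUPD18 at its brighter probe set. The brightest of 9 Rora probe sets gave 101.6 in matUPD18 and 145.6 in patUPD18. Because the amplification copies RNA from the 3' end, a probe set far from that end can read low for a transcript that is present, so low readings do not show absence.

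**Figure D3:**
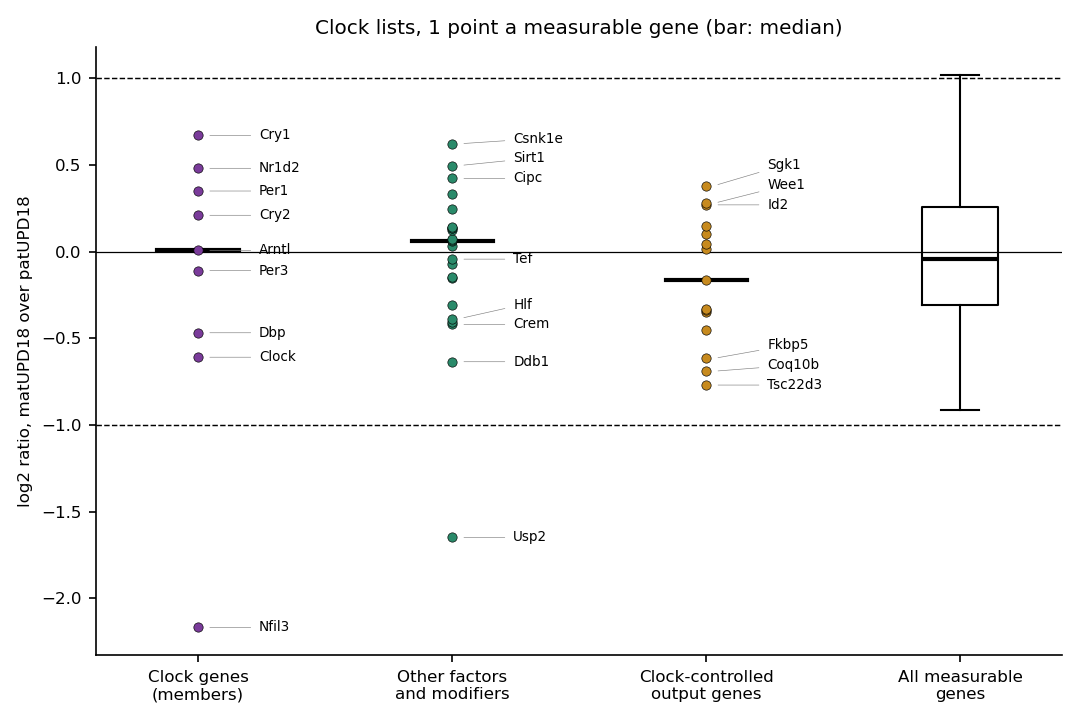
Log2 ratio of matUPD18 over patUPD18 for the measurable genes of the clock set (9), the further clock factors and modifiers (23) and the clock-controlled output genes (15), 1 point per gene at its brightest probe set, with list medians as bars. The box at the right shows the median and quartiles of all 10484 measurable genes, with whiskers at the central 95%; Nfil3 at -2.17 and Usp2 at -1.65 are the points past the dashed 2-fold lines, Usp2 at a value set by the floor.

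Among 23 genes known to be driven by the clock or by daily signals in adult tissues, 21 were on the array under a symbol of their own and 15 were measurable. All 15 lay within 2-fold, against 95.5% of all measurable genes. They had a median log2 ratio of -0.16, and 7 read higher in matUPD18 and 8 higher in patUPD18, close to the 46.1% of all measurable genes that read higher in matUPD18. The largest ratios towards patUPD18 were those of Tsc22d3, Coq10b and Fkbp5. Tsc22d3, a glucocorticoid-induced leucine zipper gene, gave 357.1 in matUPD18 and 608.7 in patUPD18, a log2 ratio of -0.77. Its other measurable probe sets read -0.76 and -0.34. All these Tsc22d3 probe sets are of kinds that may match several transcripts, so they may not be independent readings. Fkbp5, a co-chaperone of the glucocorticoid receptor, gave 1005 in matUPD18 and 1540 in patUPD18, a log2 ratio of -0.62, with -0.48 at its second measurable probe set. Coq10b, a mitochondrial coenzyme Q gene, had log2 ratios of -0.69 and -0.05, both from probe sets that may match several transcripts. In the other direction Sgk1, a kinase gene that glucocorticoids also induce, had a log2 ratio of 0.38, under the spread between probe sets. The cell cycle kinase gene Wee1, at 0.28, and the inhibitor of helix-loop-helix factors Id2, at 0.27, followed. Any part of glucocorticoids in these ratios was not tested.

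Other groups of genes were read on the same pair of arrays, where 2.70% of all measurable genes were past 2-fold towards matUPD18 and 1.78% towards patUPD18. By any amount, 46.1% of all measurable genes read higher in matUPD18. Impact, the paternally expressed imprinted gene of chromosome 18, gave 328.4 in matUPD18 and 2466 in patUPD18 at its brightest probe set, the direction that fits the labels. Its other measurable probe set gave 268.2 in matUPD18 and 205.3 in patUPD18. Of 16 measurable markers of yolk sac and visceral endoderm (20 on the array), 13 were at least 2-fold higher in matUPD18. The summed signal of the 16 was 37412 in matUPD18 and 6008 in patUPD18, most of it from Afp and Ttr. Of 12 measurable markers of primitive red cells (15 on the array), all read higher in patUPD18 and 7 were at least 2-fold higher. The sums of the 12 were 46852 in matUPD18 and 72337 in patUPD18, most of each from the globin genes Hbb-bh1 and Hbb-y. Of 14 measurable markers of neural tube, heart and somite, all lay within 2-fold, with sums of 35504 in matUPD18 and 36328 in patUPD18. Among 11 measurable heat shock and stress-induced genes, 10 read higher in patUPD18 and 1 higher in matUPD18. Past 2-fold towards patUPD18 were 3 of these 11, namely Hspa1a, Hspa1b and Ddit3. Hspa1b was 12.2-fold higher in patUPD18, and Hspa1a at least 11.5-fold, its matUPD18 value being under the floor. In the same direction, 2 of 17 immediate early genes (Ier3 and Btg2) exceeded 2-fold. The other 15 immediate early genes lay within 2-fold, and 6 of the 17 read higher in matUPD18. No marker was listed at 0. Of the 13 yolk sac and visceral endoderm markers past 2-fold, all but Afp, Ttr and Rbp4 were measurable through the matUPD18 value alone. Gata1, Gfi1b, Hspa1a, Ddit3 and Ier3, past 2-fold the other way, were measurable through the patUPD18 value alone. Such genes could enter these counts only through the array where they read higher, so the counts are descriptions. The part of yolk sac, red cells or stress-induced transcripts in the Nfil3 ratio was not tested.

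The 9 bacterial and phage hybridisation controls, added at set amounts, all read lower on the matUPD18 array, with log2 ratios from -0.75 to -0.41. Scaling to these controls raised the log2 ratios of all genes by about the same amount and brought the median of all measurable genes to 0.40. Nfil3 then had a log2 ratio of -1.72 and Cry1 one of 1.11, past 2-fold towards matUPD18, as were 10.8% of all measurable genes under that scaling. The directions of Clock, Arntl, Per2, Per3 and Dbp also depended on the choice of scaling, floor or probe set, as the plot of ratios by setting shows, while Nfil3 stayed higher in patUPD18 under all 10 settings in that plot. Cry1, Cry2, Per1 and Nr1d2 stayed higher in matUPD18 under the same 10. The floors and probe set rules could not change the ratios of Nfil3, Cry1, Cry2, Per1 or Nr1d2. Each had 1 measurable probe set, with both values above every floor used. For these genes only the scalings could differ, so the count of 10 is no measure of robustness.

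**Figure D4:**
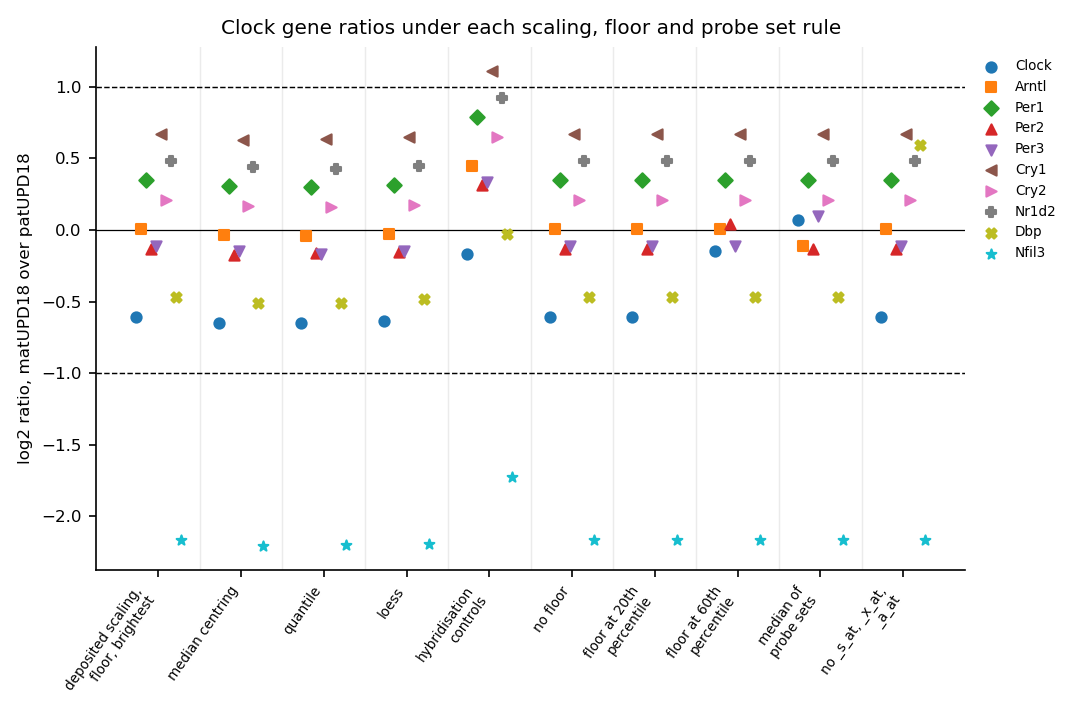
Log2 ratio of matUPD18 over patUPD18 for each of the 10 clock genes (symbols) under the 10 scalings, floors and probe set rules (horizontal axis), the leftmost being the one reported. Dashed lines mark 2-fold. Nfil3 ranges from -2.21 to -1.72, and Clock turns positive (0.07) as the median of its measurable probe sets. Dbp turns positive (0.60) when probe sets that can match several transcripts are left out, read then by a probe set that is not measurable.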

How the data were processed

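RNA from whole embryos was measured on 1 array per genotype. Per the submitters' processing notes, the deposited values are MAS5 signal intensities made with MAS5 and GCOS, whose versions the sources used here do not give. RNA was, per the labels' protocols, amplified with a RiboAmp kit and labelled with biotin. Probe sets were named from the platform annotation, with symbols updated through the Entrez identifier (RefSeq, GRCm38.p6). Of 45101 probe sets, 34945 had 1 symbol and were no control, 932 had several and 64 were controls. Genes were read by the probe set of highest mean signal, floored at the 40th percentile and called measurable at the 60th, with a 2-fold threshold. Genes of like signal are those in the same 1 of 20 equal groups of measurable genes ordered by mean signal. The members and gene lists were chosen with earlier results of these data known. Named genes were all members, named paralogs and Impact. From the lists of clock factors and outputs, the 3 largest ratios per direction and every gene past 2-fold were named. Afp, Ttr, Rbp4, Gata1, Gfi1b, Hbb-bh1, Hbb-y, Hspa1a, Hspa1b, Ddit3, Ier3 and Btg2 were named after their values were seen. The ROR element was shortened to its core after the matches of a longer form, which the Nfil3 record lacked, had been seen. The procedure was run on simulated pairs of arrays with known fold changes and random noise of the size of the spread between probe sets. The simulation held no difference between embryos and says nothing on how reliable ratios from 1 array per genotype are. Alternatives were median centring, quantile and loess scaling, other floors, probe set rules, fold thresholds and measurable limits; scaling to the hybridisation controls was chosen after seeing the data. The tools were Python 3.11.15 with statsmodels 0.14.6, scipy 1.17.1, numpy 2.4.6, pandas 2.3.3 and matplotlib 3.10.9.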

Additional observations from a re-analysis of the deposited data

How the results depend on the processing

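No paired analysis was possible because each genotype had 1 array, and no array could be left out. Under median centring, quantile or loess scaling the log2 ratio of Nfil3 ran from -2.21 to -2.19. The other floors could not change it from -2.17, since both values lay above them. After scaling to the hybridisation controls it was -1.72, the median of the members was 0.45, against 0.40 for all measurable genes, and 1 member and 1 further clock factor were at least 2-fold higher in matUPD18, since that scaling raised all ratios (10.8% of all measurable genes passed towards matUPD18 and 0.420% towards patUPD18). At a 1.5-fold threshold 1 member was higher in matUPD18 and 2 were higher in patUPD18, and among further clock factors 1 was higher in matUPD18 and 2 were higher in patUPD18, against 9.97% of all measurable genes towards matUPD18 and 8.74% towards patUPD18. Usp2, the 1 factor past 2-fold, was lost (0 left) with the floor or the measurable limit raised to the 60th or 70th percentile, in that order. In these settings 0.744% and 1.17% of all measurable genes passed towards patUPD18, in the same order. With the limit at the 70th percentile only 5 members were measurable. Single members within 2-fold had ratios that rested on the setting. Clock read -0.15 with the 60th percentile as floor and 0.07 as the median of its measurable probe sets. Dbp read 0.60 without probe sets that may match several transcripts. That value came from a probe set that was not measurable, so 8 members were measurable in that setting. The cause of these shifts was not tested.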
